A study of Danio rerio with 16 samples.

Results

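The expression of cyp1a and ahr2 was described in zebrafish brain across 4 strains and both sexes. Both genes were taken by symbol from the probe-to-gene table of the Affymetrix zebrafish array, which gave 1 probe set for each, cyp1a (member 1 of design cluster Dr.9478) and ahr2 (member 1 of design cluster Dr.8105), that is 2 of the 7958 probe sets in the deposited table. They were selected on their differences among strains in these data, so the strain values below are a description and carry no p.

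The aryl hydrocarbon receptor is a ligand-activated transcription factor that waits in the cytosol with HSP90 chaperones, moves to the nucleus when it binds planar aromatic compounds, and pairs there with an ARNT protein to switch on its targets. Zebrafish carry several receptor genes, and ahr2 is the one known for mediating the response to dioxin. The enzyme encoded by cyp1a, a cytochrome P450 monooxygenase that oxidises polycyclic aromatic compounds, is the classical target, with a low level at rest and strong induction, in the brain chiefly in the vessel wall.

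Whole brains of adult fish 4 to 6 months old were pooled by tank, 2 to 5 fish of 1 sex and strain a pool by the deposited design text and 3 to 5 by the study's methods, after behavioral observation of untreated fish, and each pool was hybridised to 1 array. There were 4 pools for each of the strains labelled TM1, SH, Nadia and Gaighatta, 2 of males and 2 of females, which gave 16 arrays. The labels call TM1 and SH domesticated, and Nadia and Gaighatta wild, with all fish reared in 1 facility on the same food and light cycle. TM1 is the transgenic strain of the study and carries green fluorescent protein (GFP) under a β-actin promoter. All values are log2 expression values that the RMA method computed from several probes each, so a difference of 1 is a change by a factor of 2.

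The strain labels do not carry the names used in the study's own table of called probe sets. Matched to within 0.0001 over 1645 probe sets, the TM1-labelled arrays hold the values listed there under Gaighatta, the SH-labelled those under Nadia, the Nadia-labelled those under SH and the Gaighatta-labelled those under TM1, with the sexes unchanged. The GFP control probe set read 8.58 to 10.46 in the Gaighatta-labelled pools and at most 3.36 in all the others, so the pools labelled Gaighatta carry the transgene and those labelled TM1 do not. Strains are therefore named by their deposited label throughout, and "TM1-labelled" does not identify the strain TM1. All array medians lay between 6.08 and 6.2.

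The TM1-labelled brains had by far the least cyp1a. The male pools read 3.68 and 3.59 and the female pools 3.77 and 3.94. In SH-labelled pools cyp1a read 8.14 and 6.82 in males and 6.45 and 6.95 in females, and in Nadia-labelled pools 8.53 and 6.96 in males and 7.51 and 8.14 in females. In Gaighatta-labelled pools it read 7.06 and 8.07 in males but 5.32 and 5.15 in females. All 4 TM1-labelled pools thus lay below all 12 others, with a gap between 3.94 and 5.15, while the ranges of the other 3 strains overlapped one another.

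The strain means of cyp1a were 3.75 ± 0.15 in TM1-labelled, 7.09 ± 0.73 in SH-labelled, 7.79 ± 0.69 in Nadia-labelled and 6.40 ± 1.41 in Gaighatta-labelled pools (SD, n = 4 each). The difference on the log2 scale was -3.34 for TM1 minus SH, -4.04 for TM1 minus Nadia and -2.66 for TM1 minus Gaighatta labels (limma standard error 0.53 each). The other neighbours in the order of the means differed by about 1 standard error or a little more, with SH minus Nadia at -0.70 and SH minus Gaighatta at 0.69. No detection call was used, so whether the TM1-labelled signal was above background is not known. In pooled tissue, fewer cells of a type and less RNA per cell cannot be told apart.

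**Figure D1:**
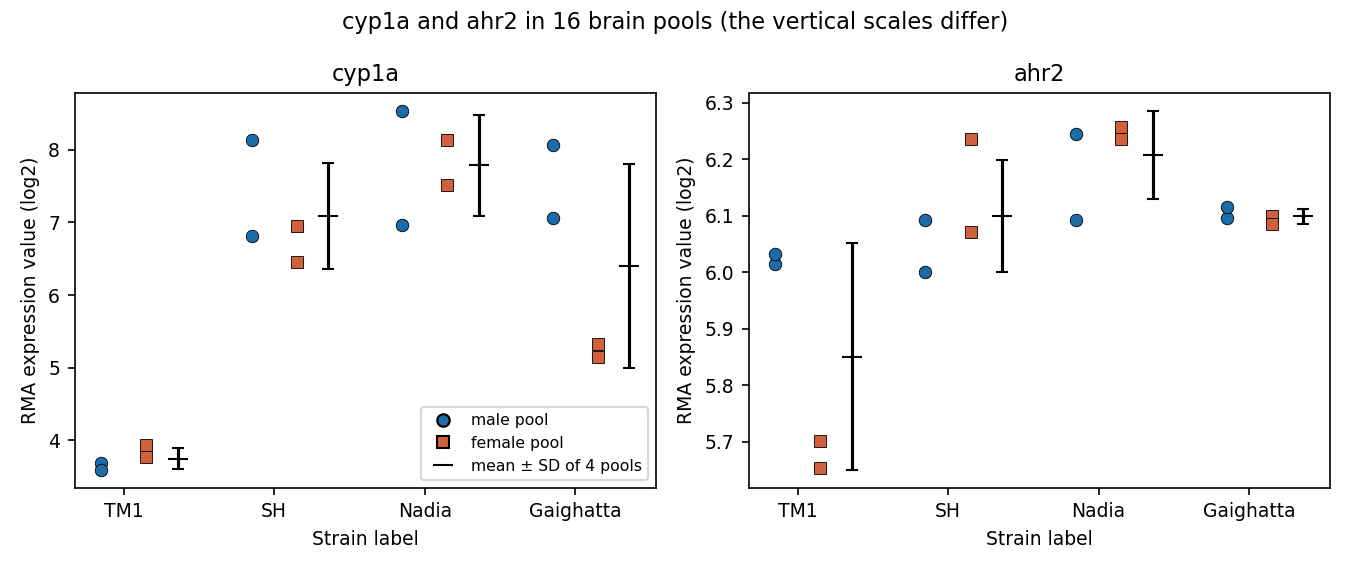
Log2 expression of cyp1a (left) and ahr2 (right) in each of the 16 brain pools, by strain label on the horizontal axis, with males as circles and females as squares and with the mean ± SD of 4 pools as bars. The 4 TM1-labelled pools lie at 3.94 or lower for cyp1a, and the TM1-labelled females are the lowest pools for ahr2, on a scale that is much narrower.

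The receptor gene itself moved far less. In TM1-labelled pools ahr2 read 6.01 and 6.03 in males and 5.70 and 5.65 in females. In SH-labelled pools it read 6.00 and 6.09 in males and 6.24 and 6.07 in females, in Nadia-labelled pools 6.25 and 6.09 in males and 6.24 and 6.26 in females, and in Gaighatta-labelled pools 6.10 and 6.12 in males and 6.10 and 6.08 in females. Only the TM1-labelled females stood below all the other pools, since the TM1-labelled males lay within the SH-labelled range.

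The means of ahr2 were 5.85 ± 0.20 in TM1-labelled, 6.10 ± 0.10 in SH-labelled, 6.21 ± 0.08 in Nadia-labelled and 6.10 ± 0.01 in Gaighatta-labelled pools (SD, n = 4 each). The difference was -0.25 for TM1 minus SH, -0.36 for TM1 minus Nadia and -0.25 for TM1 minus Gaighatta labels (standard error 0.10 each), with at most 0.11 either way among the other 3 strains. Both genes therefore had the same order at the ends, TM1-labelled lowest and Nadia-labelled highest, with sizes that differed by about an order of magnitude. Strain accounted for 80.5% of the variation of cyp1a over the pools and for 62% of that of ahr2. Over all probe sets, 34.6% passed in at least 1 of the 6 strain contrasts (limma, Benjamini-Hochberg adjusted p under 0.05), a background from which nothing is read for the members because their choice used these contrasts.

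By rearing history as labelled, cyp1a averaged 5.42 ± 1.85 in domesticated pools (3.59 to 8.14) and 7.09 ± 1.27 in wild pools (5.15 to 8.53; SD, n = 8 each). The ranges overlapped widely, and the domesticated values below the wild range were all TM1-labelled. For ahr2 the means were 5.98 ± 0.20 in pools labelled domesticated and 6.15 ± 0.08 in pools labelled wild. The pools labelled wild include the Gaighatta-labelled ones, which carry the transgene of TM1, a strain the study calls domesticated. For these pools the labelled history is thus not that of the study. Under the strain names of the study's table both sides change places, since the pools labelled domesticated then are Gaighatta and Nadia and those labelled wild are SH and TM1. The direction then turns for both genes, with cyp1a at 7.09 in domesticated and 5.42 in wild pools, and ahr2 at 6.15 in domesticated and 5.98 in wild pools.

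The genes also differed in how much pools of 1 strain varied. The pooled SD within strains was 0.87 for cyp1a, larger than for 98.8% of the probe sets, and 0.12 for ahr2, larger than for 9%, against a median of 0.172 over all 7922 probe sets. The spread of cyp1a was itself uneven. It exceeded that of 99.6% of probe sets in Gaighatta-labelled, 98.5% in SH-labelled and 97.7% in Nadia-labelled pools but only 36.6% in TM1-labelled pools. The TM1-labelled readings lay near the low end of their arrays, above only 5.52% to 9.71% of probe sets. The part of this low level in their small spread was not tested.

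Part of this spread lay between pools of the same strain and sex. In Gaighatta-labelled pools a larger part lay between the sexes, with male minus female at 2.33. The male pools differed by 0.09 in TM1-labelled, 1.33 in SH-labelled, 1.57 in Nadia-labelled and 1.01 in Gaighatta-labelled fish, and the female pools by 0.17, 0.50, 0.63 and 0.17 in the same order of strains. Outside the TM1-labelled fish the male pools were thus further apart than the female pools in each strain. The median gap over all probe sets had the same direction there. For males against females it was 0.155 against 0.148 in SH-labelled, 0.171 against 0.161 in Nadia-labelled and 0.179 against 0.11 in Gaighatta-labelled fish. Each pool held the fish of 1 tank.

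**Figure D2:**
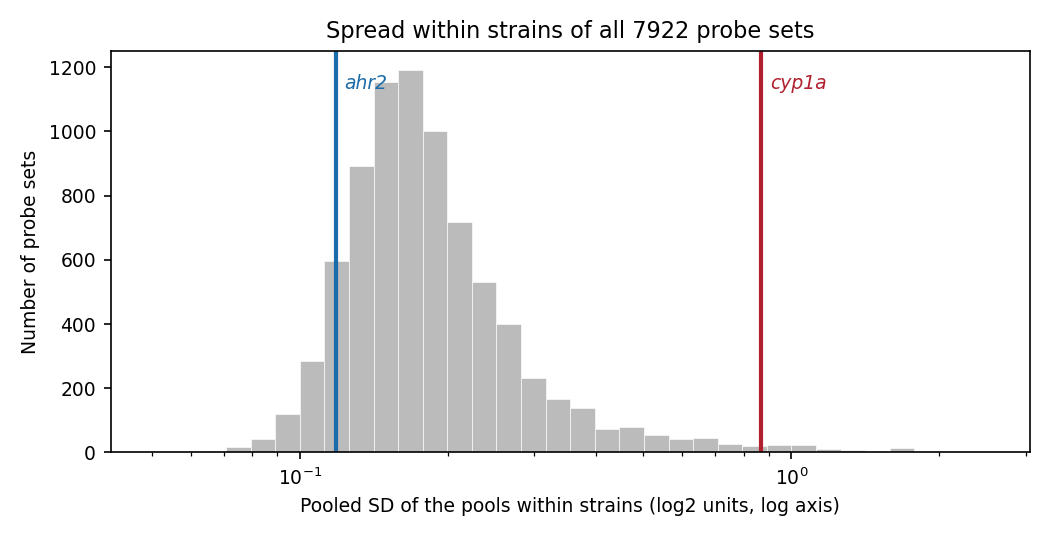
Number of probe sets (vertical axis) by the pooled SD of their pools within strains in log2 units (horizontal log axis), over all 7922 probe sets, with cyp1a and ahr2 marked by lines. cyp1a lies in the upper tail at 0.87 and ahr2 on the lower side of the distribution at 0.12.

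Sex was not used to choose the genes and could be tested. cyp1a averaged 6.61 in males (3.59 to 8.53) and 5.91 in females (3.77 to 8.14; n = 8 pools each), a difference of 0.70 with a standard error of 0.25. It did not pass the test over all probe sets (limma, unadjusted p = 0.0145, adjusted p = 0.333), in a comparison where 0.151% of probe sets passed and 12.2% had an unadjusted p under 0.05. The difference sat mainly in 1 strain. Male minus female was -0.22 in TM1-labelled, 0.78 in SH-labelled, -0.08 in Nadia-labelled and 2.33 in Gaighatta-labelled pools (standard error 0.50 each).

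In the Gaighatta-labelled fish both male pools lay above both female pools, by at least the gap between 7.06 and 5.32. The test of whether the sex difference varied among strains gave an unadjusted p of 0.0115 and an adjusted p of 0.762 (limma moderated F test), in a comparison where 0.0757% of probe sets passed and 4.53% had an unadjusted p under 0.05. Without the Gaighatta-labelled pools the sex difference of cyp1a was 0.16 (limma, adjusted p = 0.829). That fit was chosen after the values were seen and drops the strain with the largest difference, so a smaller value follows from the choice. Without the TM1-labelled pools the sex difference of cyp1a was 1.01 (limma, adjusted p = 0.297).

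For ahr2 the means were 6.09 in males and 6.04 in females, a difference of 0.04 with a standard error of 0.06 (limma, adjusted p = 0.771). Male minus female was 0.35 in TM1-labelled, -0.11 in SH-labelled, -0.08 in Nadia-labelled and 0.01 in Gaighatta-labelled pools (standard error 0.11 each). Its interaction with strain did not pass (limma moderated F test, unadjusted p = 0.0521, adjusted p = 0.993). The strain with the widest sex difference was thus TM1-labelled for ahr2 and Gaighatta-labelled for cyp1a, in males over females in both cases.

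**Figure D3:**
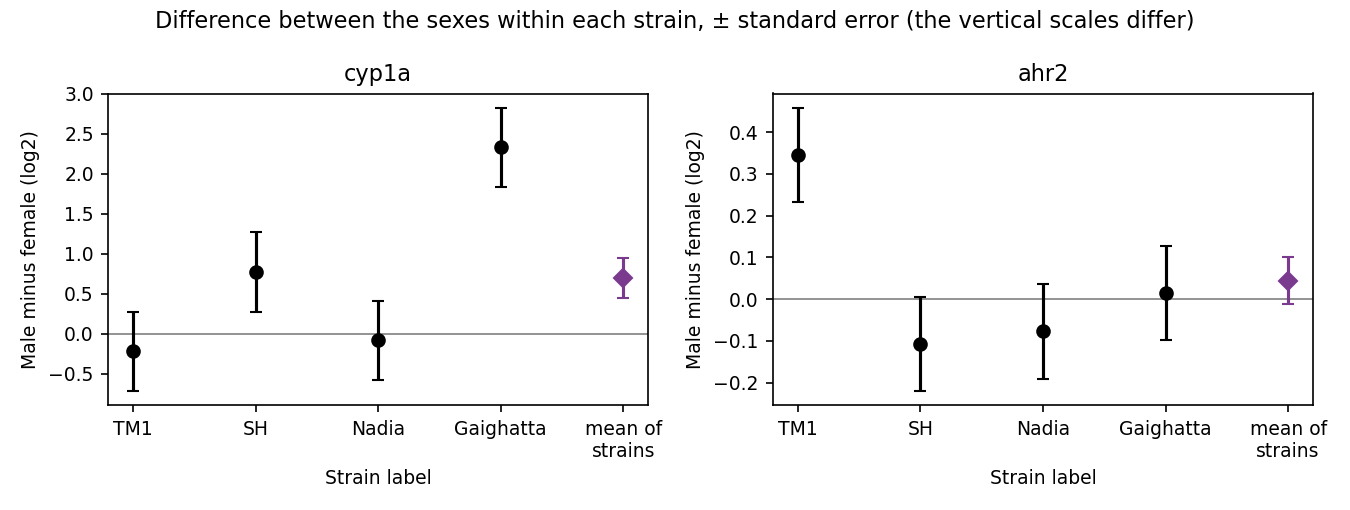
Male minus female difference in log2 units (vertical axis) of cyp1a (left) and ahr2 (right) for each strain label, with the mean of the 4 strains as a diamond and bars of ± 1 standard error. The difference stands out at 2.33 in Gaighatta-labelled pools for cyp1a and at 0.35 in TM1-labelled pools for ahr2.

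The TM1-labelled males also differed from the females in genes listed for white blood cells (leukocytes). A list of leukocyte genes, added after the values were seen, had 16 measured members, and their mean level was 7.22 and 6.88 in the TM1-labelled male pools, against 6.36 and 6.42 in the TM1-labelled female pools. In the other 12 pools it ran between 5.87 and 6.57. Both TM1-labelled males lay above both females in 12 of the 16 genes (75%), against 11.4% of all probe sets, with a median male minus female difference of 0.68, against -0.05 over all. The list counts the probe set that the platform table names mpx, which is taken up below. Which cells of the brain pools gave these transcripts was not tested, and neither was the part of these genes in the ahr2 values.

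Pools with more ahr2 than their strain's mean did not have detectably more or less cyp1a. Over the 16 pools, the deviations of both genes from their strain means had a Pearson r of -0.07 (two-sided exact permutation within strains, p = 0.619) and a Spearman rho of 0 (p = 1). Without the 2 TM1-labelled female pools, which lie farthest from the median of ahr2, r was -0.02 (exact permutation p = 0.958) and rho 0.19 (p = 0.521). The narrow range of ahr2, at most 0.20 either side of a strain's mean, limits what such a correlation can show.

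Among the other genes of the receptor pathway, 11 were measured. They comprise the dimer partner arnt2, the chaperone genes hsp90aa1.1, hsp90aa1.2, ptges3a and ptges3b, and genes that respond to the receptor or to linked stress pathways, namely nqo1, gstp1.2, aldh3a2a, nfe2l2a, sox9b and ccng2. Other genes of the planned list had no probe set of their own among those tested. Among them were the dimer partner arnt, the chaperone aip, the repressors ahrra, ahrrb and tiparp, and the target cyp1b1, so nothing is known of these here. Among strains 4 of the 11 were called (36.4%), against 34.6% of all probe sets, and 0 of 11 were called by sex, against 0.151%. An unadjusted p under 0.05 by sex was found for 3 of the 11, against 12.2% of all probe sets. The median of their largest strain difference was 0.345, against 0.310 over all probe sets. TM1-labelled pools had the lowest mean of the 4 strains in 2 of the 11, nqo1 and gstp1.2 (18.2%, against 30.8% of all probe sets), and the highest in 7 (63.6%, against 19.9%). Among these 7, only hsp90aa1.2 and sox9b were called among strains. The lead was slight in ccng2, at 6.89 against 6.87 in SH-labelled pools, and in ptges3a, at 8.97 against 8.94. The second probe set of ccng2 had its highest mean in Nadia-labelled pools.

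The dimer partner and chaperone genes that were measured showed no pattern like that of cyp1a. arnt2, a dimer partner gene expressed mainly in neural tissue, averaged 5.14 in TM1-labelled, 5.05 in SH-labelled, 4.95 in Nadia-labelled and 4.94 in Gaighatta-labelled pools, and no contrast passed (limma, smallest adjusted p = 0.407). Of the chaperones, hsp90aa1.2 was higher in TM1-labelled pools at 10.05 ± 0.21 than in Gaighatta-labelled pools at 9.43 ± 0.38 (SD, n = 4 each; difference 0.63, limma adjusted p = 0.0171). Its second probe set gave 0.80 for the same contrast (adjusted p = 0.00175). hsp90aa1.1, a near-identical copy whose probes may share its transcripts, had one high TM1-labelled male pool at 7.44 and did not pass (largest difference 1.23, adjusted p = 0.0529).

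The co-chaperone gene ptges3b was higher in SH-labelled than in Gaighatta-labelled pools by 0.31 (limma, adjusted p = 0.0429), the 1 of the 11 genes called higher there against 7.71% of all probe sets, while the strain means of its paralog ptges3a lay within 0.04 of one another (adjusted p = 0.895). No contrast that passed for a chaperone had the TM1-labelled pools on the lower side.

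Of the response genes, sox9b, a cartilage and glial transcription factor gene whose level falls in zebrafish embryos exposed to dioxin, was higher in TM1-labelled pools at 7.77 ± 0.17 than in Gaighatta-labelled pools at 7.20 ± 0.08 (difference 0.58, limma adjusted p = 0.00516) and higher in Nadia-labelled than in Gaighatta-labelled pools by 0.41 (adjusted p = 0.0426). The aldehyde dehydrogenase gene aldh3a2a was likewise higher in TM1-labelled than in Gaighatta-labelled pools by 0.33 (adjusted p = 0.0357) and in Nadia-labelled than in Gaighatta-labelled pools by 0.35 (adjusted p = 0.0397). Over all probe sets 8.27% were called higher and 12.6% lower in TM1-labelled than in Gaighatta-labelled pools, against 3 and 0 of the 11 pathway genes. In Nadia-labelled over Gaighatta-labelled pools, 2 of the 11 were called higher, against 6.69% of all probe sets. ccng2 and nfe2l2a were not called with their brighter probe set (smallest adjusted p = 0.151 and 0.489), though the dimmer one of ccng2 was (largest difference 0.53, adjusted p = 0.00365).

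nqo1, the quinone reductase gene that the receptor and the oxidative stress factor Nrf2 both induce in mammals, had its lowest strain mean in TM1-labelled and its highest in Nadia-labelled pools, like cyp1a. In TM1-labelled pools it read 4.92 and 5.45 in males and 4.94 and 4.75 in females. In the other strains it ran between 5.44 and 5.99 in SH-labelled, 5.59 and 6.35 in Nadia-labelled and 5.09 and 7.02 in Gaighatta-labelled pools. Its strain means of 5.02 in TM1-labelled and 5.93 in Nadia-labelled pools differed by 0.92, which did not pass (limma, adjusted p = 0.124), and the smallest adjusted p of its 6 contrasts was 0.105.

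gstp1.2, a glutathione transferase gene, averaged 9.80 in TM1-labelled, 10.14 in SH-labelled, 10.16 in Nadia-labelled and 10.05 in Gaighatta-labelled pools, and did not pass either (largest difference 0.37, limma smallest adjusted p = 0.0918). Its order of strain means was that of cyp1a. Both genes were thus lowest in TM1-labelled fish, by differences that did not pass the test.

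**Figure D4:**
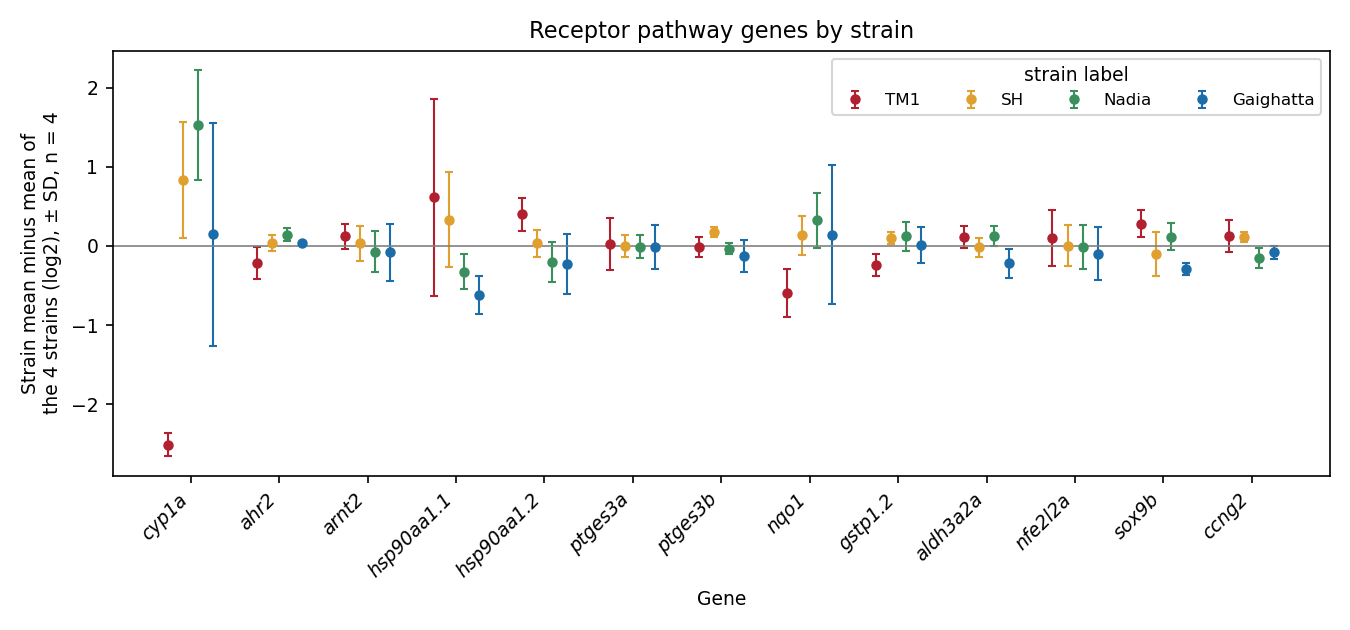
Strain mean minus the mean of the 4 strains in log2 units (vertical axis), with bars of ± SD over 4 pools, for cyp1a, ahr2 and the 11 other measured pathway genes (horizontal axis), coloured by strain label. The low TM1-labelled value of cyp1a has no counterpart of its size among the others, of which ahr2, nqo1 and gstp1.2 also have their lowest mean there.

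Within strains, cyp1a was compared with each of the 11 pathway genes. Sex was not taken out of these deviations, so differences between male and female pools of a strain enter r. In Gaighatta-labelled fish both male pools lay above both female pools in gstp1.2 and nqo1, as in cyp1a. The part of sex in these correlations was not tested. The highest correlation of deviations from strain means was with gstp1.2 (r = 0.64, rho = 0.54, permutation p = 0.0415 and adjusted p = 0.152 for r), and nqo1 followed (r = 0.63, rho = 0.48, permutation p = 0.0781, adjusted p = 0.215). aldh3a2a ran the other way (r = -0.60, rho = -0.48, permutation p = 0.0377, adjusted p = 0.152), and hsp90aa1.1 had r = -0.32 and rho = -0.49 (permutation p = 0.0159, adjusted p = 0.152). None of the 11 passed after adjustment, and the others lay between r = -0.44 for arnt2 and 0.39 for ptges3a.

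The relation with nqo1 rested on few pools. The Gaighatta-labelled male pool 2, with cyp1a at 8.07, held the highest nqo1 of all pools at 7.02, and without it and the TM1-labelled female pool 2 r was 0.29. For gstp1.2, r was 0.58 without the 2 pools farthest from its median. For aldh3a2a, r was -0.42 without the Gaighatta-labelled male pool 2 and the TM1-labelled female pool 1. For hsp90aa1.1, r was -0.58 without the TM1-labelled male pool 1 and the TM1-labelled female pool 1.

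**Figure D5:**
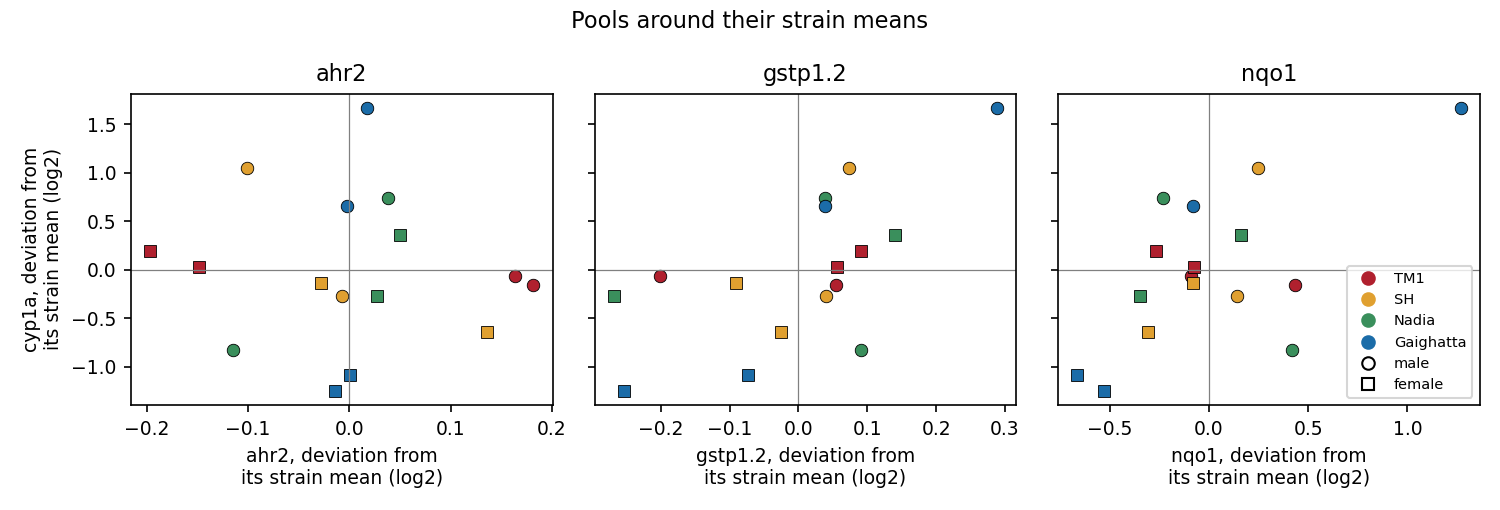
Deviation of cyp1a from its strain mean (vertical axis, log2) against the same deviation of ahr2, gstp1.2 and nqo1 (horizontal axes, log2) in the 16 pools, coloured by strain label, with males as circles and females as squares. No slope is seen for ahr2 (r = -0.07), and the upper right point for nqo1 is the Gaighatta-labelled male pool 2.

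The other cytochrome P450 genes and their electron donors were called among strains in 10 of 18 cases (55.6%), against 34.6% of all probe sets, and by sex in 0 of 18, against 0.151%. An unadjusted p under 0.05 by sex was found for 6 of the 18, against 12.2% of all probe sets. TM1-labelled pools had the lowest mean in 10 of them, against 30.8% of all probe sets. cyp2aa6 was highest in SH-labelled pools at 6.49 and lowest in Gaighatta-labelled pools at 4.89 (difference 1.60, limma adjusted p = 8.46e-06). cyp19a1b, the brain aromatase gene, was lower in SH-labelled than in Nadia-labelled pools by 1.44 (adjusted p = 2.88e-05), although its other 2 probe sets were not called.

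With the TM1-labelled pools on the lower side, cyp27c1, a retinoid desaturase gene, was lower than in Gaighatta-labelled pools by 0.75 (limma, adjusted p = 0.00188), and cyp2p6 by 0.63 (adjusted p = 0.00112). In TM1-labelled against SH-labelled pools, 5 of the 18 were called lower (27.8%) and 1 higher, against 3.96% and 2.68% of all probe sets. None of them had a difference of the size of that of cyp1a.

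Of the conjugating enzymes, which act on the products of P450 oxidation, 1 of 13 was called among strains (7.69%, against 34.6% of all probe sets), gsto1 (largest difference 0.41, limma adjusted p = 0.0417), and 0 of 13 by sex, against 0.151%. An unadjusted p under 0.05 by sex was found for 5 of the 13, against 12.2% of all probe sets. TM1-labelled pools had the lowest mean in 8 of the 13 (61.5%, against 30.8% of all probe sets). Of the PAS domain genes, the protein family of the receptor, 5 of 11 were called among strains (45.5%, against 34.6%). Among those called, the clock gene per2 had the largest difference at 1.36, followed by clockb at 0.99, bmal1a at 0.83 and hif1ab at 0.35. By sex 1 of the 11 was called, against 0.151% of all probe sets. It was epas1b, a hypoxia-inducible factor gene, higher in males by 0.54 with a standard error of 0.09 (limma, adjusted p = 0.0479).

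Markers of cells that could carry cyp1a were set beside it. The endothelial list had 7 measured genes, and their mean level ran from 4.70 to 4.81 in TM1-labelled pools, and up to 4.84 in SH-labelled, 4.96 in Nadia-labelled and 5.06 in Gaighatta-labelled pools, with overlapping ranges. Of these 7 genes, 2 were called among strains (28.6%, against 34.6% of all probe sets). Both were lower in TM1-labelled than in Gaighatta-labelled pools, the tight junction gene cldn5a with a difference of -1.17 (limma, adjusted p = 0.000774) and the vascular receptor gene kdrl with -0.49 (adjusted p = 0.0171). cldn5a averaged 2.78 in TM1-labelled, 2.82 in SH-labelled, 3.05 in Nadia-labelled and 3.96 in Gaighatta-labelled pools. It was thus higher in Gaighatta-labelled pools than in each other strain (limma, adjusted p = 0.00103 against SH and 0.00682 against Nadia labels). These are low readings, as the lowest deposited value was 2.27. For the meninges the mean of 7 genes was 6.08 to 6.55 in TM1-labelled pools, 6.88 to 7.19 in SH-labelled, 6.62 to 7.15 in Nadia-labelled and 6.00 to 6.74 in Gaighatta-labelled pools, and 5 of the 7 were called (71.4%). Of those called, the collagen genes col1a1a and col1a2 had the largest differences, -1.68 and -1.42 for TM1 minus SH labels (limma, adjusted p = 0.0239 and 0.0217). sparc, a matrix protein gene, was lower in TM1-labelled pools than in each other strain, with differences of -1.03 against SH, -0.88 against Nadia and -0.72 against Gaighatta labels (limma, largest adjusted p of these = 0.00357). postnb and col5a2a had their lowest means in Gaighatta-labelled pools instead, at 4.22 and 5.24. TM1-labelled pools had the lowest mean in 3 of the 7 meningeal genes (42.9%, against 30.8% of all probe sets). The part of either list in the cyp1a values was not tested.

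The liver list, for the organ richest in the enzyme, ran from 7.75 to 8.54 in TM1-labelled pools and between 7.52 and 8.22 in the others, with 1 of 3 genes called among strains, against 34.6% of all probe sets. Its top value came from the TM1-labelled male pool 1, where tfa, the transferrin gene, read 6.50, against 3.56 to 4.81 in all other pools. The other members were cp at 9.44 in TM1-labelled, 9.77 in SH-labelled, 9.61 in Nadia-labelled and 9.34 in Gaighatta-labelled pools, and rbp4 at 9.87, 9.65, 10.36 and 9.64 in the same order of strains. Both lay far above tfa, which averaged 4.24 over the pools, and so set most of the level of the list mean. Whether cp and rbp4 transcripts came from liver or from brain cells was not tested. Of the other lists, 5 of 9 epithelial (55.6%), 2 of 4 neuronal (50%) and 3 of 6 astroglial genes (50%) were called among strains. By sex 1 of the 5 red blood cell genes was called, against 0.151% of all probe sets. It was hbba2, a hemoglobin gene higher in males by 1.91 (limma, adjusted p = 0.00803). No gene of the endothelial, meningeal, liver, epithelial, neuronal or astroglial lists was called by sex. TM1-labelled pools had the lowest mean in 5 of 5 red blood cell genes (100%, against 30.8% of all probe sets), and 2 of the 5 were called among strains (40%). The hemoglobin gene hbaa1 was lower in TM1-labelled pools, with differences of -0.56 against SH and -0.57 against Gaighatta labels (limma, adjusted p = 0.0283 and 0.0108), and the carbonic anhydrase gene cahz likewise, with -0.63 against SH labels (adjusted p = 0.0414). The mean over the list overlapped between TM1-labelled pools (7.21 to 8.11) and the others (7.36 to 8.42). The mean of the 9 epithelial genes ran from 7.54 to 7.78 in TM1-labelled and from 6.84 to 8.06 in SH-labelled pools. In Nadia-labelled pools it ran from 7.09 to 9.06 and in Gaighatta-labelled pools from 6.19 to 7.42. The part of red blood cells, of the genes of the liver list and of epithelial cells in the cyp1a values was not tested.

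The genes most like cyp1a over the 16 pools, among 4922 genes with a symbol, were dbi (r = 0.89), sparc (0.85), gstp1.2 (0.83), tuba7l (0.81) and msmo1 (0.80), all with their lowest strain mean in TM1-labelled pools. dbi, the acyl-CoA binding protein gene, read 6.12 and 6.33 in TM1-labelled males and 6.44 and 6.31 in TM1-labelled females, and all other pools were at 6.65 or higher. Over the 12 pools without the TM1 label these values of r fell to 0.64, 0.50, 0.70, 0.64 and 0.47 in the same order of genes. After the strain means were taken away, the nearest were zgc:92360 (r = 0.79), si:ch211-195b11.3 (0.78), dhrs13a.2 (0.78), lgals3b (0.77) and si:ch211-237l4.6 (0.76), none of them from the pathway list.

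A further probe set shares the design cluster of cyp1a, as member 2 of Dr.9478, and the platform table names it mpx, the myeloperoxidase gene of neutrophils. It was looked up after the values were seen. It read 3.18 to 3.39 in TM1-labelled pools and 3.22 to 4.00 in the others, and ranked the sixth of 5638 probe sets in likeness to cyp1a over the 16 pools (r = 0.80) and the ninth within strains (r = 0.74). Its r with lyz, the lysozyme gene of the same cells, was 0.01. No sequence of either probe set was at hand, and which transcript this probe set measures was not tested.

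For ahr2 the nearest genes over the 16 pools were cavin2b (r = 0.76), zgc:113208 (0.75), wdr26b (0.74), cbx3b (0.73) and peli1b (0.72). Without the TM1-labelled pools, r stayed at 0.72 for cavin2b and 0.64 for cbx3b, and was 0.02 for zgc:113208, 0.06 for wdr26b and -0.32 for peli1b.

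Within strains the genes nearest to ahr2 were mmp14b (r = 0.92), ncf1 (0.91), anxa3b (0.85), grna (0.84) and vsir (0.83). ncf1, a subunit gene of the phagocyte oxidase, read 5.65 and 5.56 in TM1-labelled males and 3.68 and 3.96 in TM1-labelled females, against 3.01 to 4.38 in the other pools, so the same 2 male pools stood apart as in the leukocyte list. Without the TM1-labelled pools these values of r were 0.74, 0.76, 0.48, 0.45 and 0.69 in the same order of genes. All these likenesses are descriptions over pools that share strains, with no p.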

How the data were processed

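The deposited values are log2 expression values of Affymetrix Zebrafish Genome Arrays, which the authors corrected, normalized and summarised with RMA in the affy package and filtered for expression. No version of either was stated in the sources used here. The 36 control probe sets were left out, and 7922 were tested, of which 7068 had an interquartile range under 0.5. The study's methods state that genes under this value were excluded, which the deposited values do not show. Before its strain tests the study removed probe sets with signs of polymorphic probes, which can confound comparisons between genotypes. They were not removed here, so the strain calls of the lists and the background of 34.6% can include them. The number of arrays limits the precision. The probe set of cyp1a is in the study's table of called probe sets and so was kept by its filter on polymorphic probes, and that of ahr2 is not in the table, so its status is unknown. Probe sequences were not used here.

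The software was R 4.3.3 with limma 3.58.1. A mean for each strain was fitted for strain differences, and sex and its interaction with strain in a factorial model, with Benjamini-Hochberg adjustment over all probe sets and a threshold of 0.05. A gene was called among strains when 1 of 6 contrasts passed. Its probe set of highest mean stood for it. Correlations used deviations from strain means, with 331776 exact permutations for ahr2 and 100000 draws for each of the 11 pathway genes. Sex was taken out as well only in an alternative for ahr2. Simulated data with known changes served as a test of the scripts. Replicates are tank pools, so p-values measure the spread between pools.

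The members, lists and tests were chosen with earlier results of these data known. The named genes are both members, every measured gene of the receptor pathway list, up to 4 called genes of each other list by size of difference, and the 5 genes most like each member on each measure. The lists cover the receptor pathway, cytochrome P450 genes, PAS domain genes, conjugating enzymes and markers of 7 cell types. The leukocyte list was added after the values were seen, without ncf1 and grna. Alternatives were other scalings, probe set filters, variance models, covariates and strains, and each pool left out in turn.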

Additional observations from a re-analysis of the deposited data

Results flagged for a closer look

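For each gene, the 4 pools of each strain and the 8 of each sex were tested for a pool far from the rest. Among these 12 sets 1 stood out, and chance marks about 1 in 20 such sets. It was ahr2 in the Nadia-labelled male pool 2, at 6.09 against 6.24 to 6.26 in the other 3 Nadia-labelled pools, with a gap of 0.867 of the range.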

How the results depend on the processing

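The sex difference of cyp1a stayed positive and short of the threshold under 10 alternatives (0.16 to 1.01), and without each pool in turn it was 0.51 to 0.90 (limma, adjusted p = 0.166 to 0.631). Its interaction with strain also never passed (adjusted p = 0.652 to 0.999, and 0.269 to 1.0 without each pool). The sex difference of ahr2 was -0.057 without the TM1-labelled pools (limma, adjusted p = 0.718), and 0.02 to 0.06 without each pool. The correlation of cyp1a with ahr2 turned positive, at 0.0066 with arrays centred on their medians, 0.00635 with quantile normalization repeated and 0.0973 with deviations from the mean of strain and sex (exact permutation p = 0.959, 0.962 and 0.797), and was -0.195 to 0.0473 without each pool. The largest strain difference without each pool was 3.79 to 4.31 for cyp1a and 0.29 to 0.42 for ahr2.

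Over all probe sets, 663 were called among strains with an interquartile range of at least 0.5, and 2121 to 2807 without each pool. The filter on interquartile range left out 7068 of the 7922 probe sets. Of those it kept, a larger share was called than the 34.6% of the main fit. By sex 24 were called in an additive model and 7 to 118 without each pool, with 118 without the TM1-labelled male pool 2, 7 without the TM1-labelled female pool 1, the SH-labelled male pool 1 or the Gaighatta-labelled female pool 1, 20 without the Nadia-labelled female pool 1 and 21 without the Gaighatta-labelled male pool 1. For the interaction, 6 became 1 with the filter on interquartile range, 3 with the replicate block and 0 without TM1-labelled pools, and 0 to 31 without each pool, with 31 without the Nadia-labelled female pool 1. Of the pathway list, 2 genes were called among strains with that filter, which also left out genes of the list. Without each pool, 2 to 5 of its 11 genes were called, against 2121 to 2807 of all 7922 probe sets, with 2 without the Gaighatta-labelled male pool 1. The cause of these shifts was not tested.

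Replicate numbers only number tanks, and of 28 pairs of groups 6 had deviations correlated above 0.1 (-0.29 to 0.31). With the replicate block the sex difference of cyp1a was 0.70 (limma, adjusted p = 0.359) and 16 probe sets were called by sex. The fits without Gaighatta-labelled pools, and those of the interaction and the pathway list without TM1-labelled pools, were chosen after seeing the data.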
